A study of Saccharomyces cerevisiae with 8 samples.

Results

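Read-through molecules are RNAs that pass the 3′ end of an upstream transcript and the start of a downstream transcript on the same strand. They were looked for in TIF-seq data of budding yeast, in which the junction of a circularised cDNA gives the start and the end of the same RNA molecule. The molecules of all 8 libraries were summed in bins of 100 nt per strand. Each 3′ bin with 100 or more ends was joined to the nearest 5′ bin with 100 or more starts that lay 0 to 5 bins downstream, and the pair was kept when 10 or more molecules started at least 3 bins before the 3′ bin and ended at least 3 bins beyond the 5′ bin. This chose 189 pairs out of 1324 candidate pairs, which came from 6056 3′ bins and 5946 5′ bins. Neighbouring pairs share molecules, so the 189 pairs were joined into 129 loci, of which 91 held 1 pair and the others 2 to 6. The pairs were chosen on the number of read-through molecules summed over the libraries, and that number is therefore a description and not a result.

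All libraries were made from the diploid SK1 strain FW2795 without further treatment in the labels. In this strain IME1, the master regulator of entry into meiosis, is driven by the copper-inducible CUP promoter (irt1::pCUP-3HA-IME1::HphMX), and NDT80, the transcription factor that drives exit from meiotic prophase, is driven by the GAL promoter (ndt80::pGAL-NDT80::TRP1) through an estradiol-dependent GAL4 fusion expressed from the GPD1 promoter. The fusion construct was ura3::pGPD1-GAL4(848).ER::URA3, and all groups also carried the markers trp1::hisG, his3::hisG, and leu2::hisG with ura3, lys2, and ho::LYS2. Each group was a pool of time points with 2 replicates. The pm pool covered 0 to 2 h in sporulation medium (SPO), before IME1 was induced with 50 μM CuSO4 at 2 h. The T1 pool covered 3 to 6 h (entry into meiosis), the T2 pool 7 to 9 h after 1 μM estradiol at 6 h (meiotic divisions), and the T3 pool 15 to 120 min after cells at 6 h in SPO were returned to rich medium (YPD). A pool averages its time points, so fewer cells with a transcript and less transcript per cell cannot be told apart. The libraries held 552357 to 1820826 molecules on the 16 chromosomes. Their median length ranged from 772 nt in T2 replicate 2 to 916 nt in T1 replicate 2, and 0.756% to 1.90% of molecules exceeded 1500 nt. Positions are on the authors' SK1 assembly, with no annotation of that assembly, so loci are named by the 3′ bin of the pair and carry no gene names.

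Yeast genes lie close together, and between neighbouring genes on the same strand a short stretch must hold the cleavage and polyadenylation signals of the first gene and the promoter of the second. Cleavage and polyadenylation release the mRNA of the first gene and allow RNA polymerase II to terminate. A polymerase that passes these signals makes a joined transcript, and transcription across a downstream promoter is known to be able to repress it in yeast.

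The pairs fell into 3 classes by how the read-through molecules compared with the molecules that came up to the 3′ bin and ended there (terminated) and with those that started in the 5′ bin and ran at least 3 bins on (downstream-started). In 96 pairs at 71 loci, read-through molecules were fewer than both (rare class). In 55 pairs at 40 loci they outnumbered both (dominant class), and the other 38 pairs formed the intermediate class. The rare class had a median of 29 read-through molecules against medians of 376.5 terminated and 388.5 downstream-started molecules. The dominant class had a median of 2641 read-through molecules against 193 terminated and 187 downstream-started molecules. The read-through molecules of the dominant class made up 95.1% of all read-through molecules counted over the pairs, and those of the rare class 0.984%. A molecule can be counted in several pairs of a locus. Counted once, 355077 molecules, or 4.15% of all molecules, passed at least 1 pair, and only 3497 of them, or 0.0409% of all molecules, passed a pair of the rare class.

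**Figure D1:**
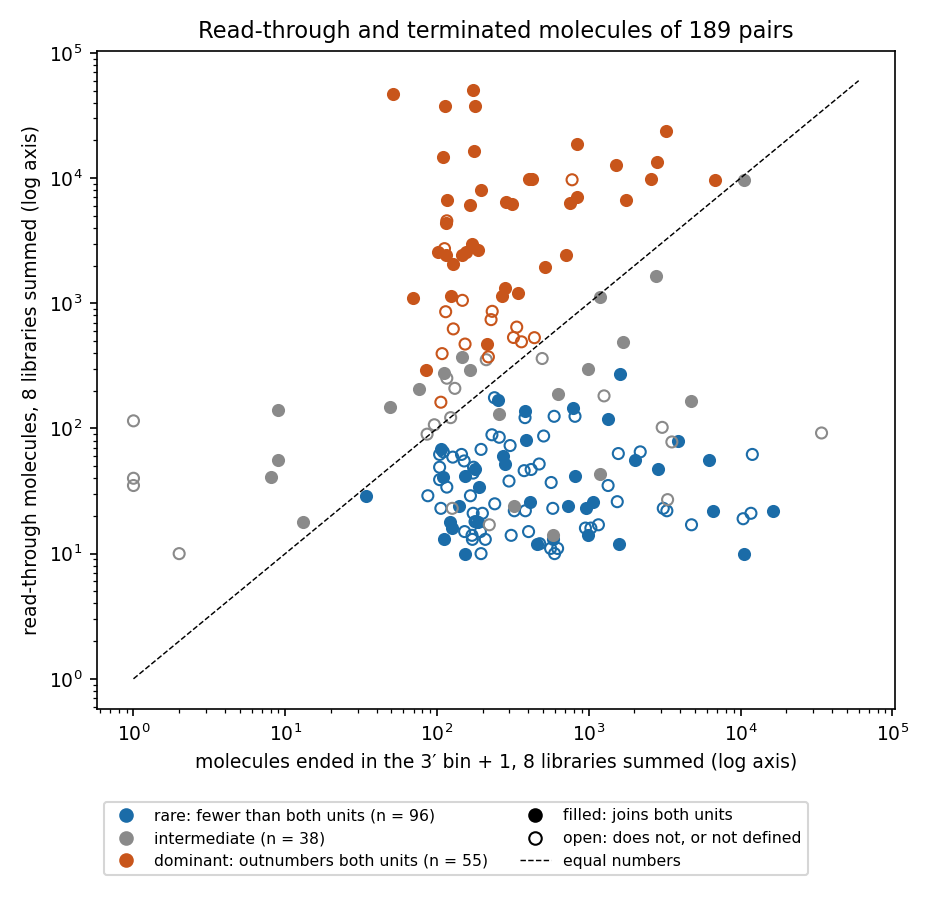
Read-through molecules (y axis, log scale) against terminated molecules plus 1 (x axis, log scale), summed over the 8 libraries, for the 189 pairs; colours give the 3 classes, and filled points are pairs whose read-through molecules join both units. By the definition of the classes, the 55 dominant pairs lie above the line of equal numbers and the 96 rare pairs below it. The rare pairs had 10 to 271 read-through molecules.

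The starts and ends of the read-through molecules were then compared with the main start and end of the separate forms. The rule had set only how far from the 2 bins the molecules had to start and end, and not at which positions. A pair was counted as joining both units when at least 50% of its read-through molecules started within 1 bin of the most used start of the terminated molecules and ended within 1 bin of the most used end of the downstream-started molecules. This held for 95 of the 189 pairs, which were 36 of the 96 rare pairs, 20 of the 38 intermediate pairs, and 39 of the 55 dominant pairs. In 5 intermediate pairs it was not defined, because terminated or downstream-started molecules were lacking. A read-through form that met this criterion and was rarer than both separate forms was thus seen in 36 pairs at 29 loci. The 20 intermediate pairs that met the criterion are not counted there, though read-through can be minor beside 1 unit. At chr5:266301-266400 on the minus strand, 295 read-through molecules stood beside 164 terminated and 14331 downstream-started molecules. The criterion is also met by 1 long transcript with an end and a start inside it. It was met by 39 of the 55 dominant pairs, a larger part than the 36 of the 96 rare pairs. It therefore cannot by itself show 2 units. In the dominant pairs the passing molecule was itself the main form, and the ends and starts inside it were minor: the median share of read-through among molecules that reached the 3′ bin was 89.4%, with a range of 54.9% to 99.9%. The same share had a median of 9.04% and a range of 0.0949% to 46.8% in the rare class. The class definition itself sets this share above 50% in the dominant class and below 50% in the rare class.

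In the 36 rare pairs that joined both units, terminated molecules had a median length of 546.5 nt, downstream-started molecules 619.5 nt, and read-through molecules 1360 nt (medians of the pairs' medians). The distance from the most used 3′ end to the most used 5′ end had a median of 70 nt and ranged from −33 nt, where the downstream start lay before the upstream end, to 421 nt. Over all 189 pairs the median distance was 31 nt, and in 60 pairs the downstream start lay before the upstream end. In 125 pairs both bins were the same bin. Of the 60 rare pairs that did not join both units, 35 differed in the start and 28 in the end, including 3 that differed in both. Those molecules were read-through by the rule, but they started or ended at other positions than the main forms of the units.

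Pairs with a short joined span were kept at a higher rate than pairs with a long span. The joined span, from the most used upstream start to the most used downstream end, was defined for 1300 candidate pairs. Of the 27 candidate pairs with a joined span of up to 1000 nt, 22 (81.5%) were kept. Of the 445 with 1501 to 2000 nt, 52 (11.7%) were kept, and of the 625 over 2000 nt, 33 (5.28%). The median joined span was 1967.5 nt over the candidate pairs and 1486 nt over the kept pairs. Some read-through was seen in 163 of the 445 and in 92 of the 625. The 901 candidate pairs with 0 read-through molecules are not shown to lack it. Near the threshold, 5 pairs had 10 read-through molecules, 3 had 9, and 3 had 8.

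A tandem arrangement with all 3 forms was found at chr5:228201-228300 on the plus strand. Terminated molecules ran mainly from position 227447 to 228266 (783 molecules), downstream-started molecules from 228243 to 228829 (4594 molecules), and 146 molecules from 227447 to 228829. Of these, 97.3% began at the upstream start and 100% ended at the downstream end, and they had a median length of 1385 nt, against 791 nt and 587 nt for the separate units. Read-through molecules numbered 11 and 15 in the pm libraries, 70 and 40 in T1, then 8 and 1 in T2, and lastly 0 and 1 in T3. Terminated molecules numbered 93 and 283 in pm, 134 and 113 in T1, then 58 and 15 in T2, and lastly 54 and 33 in T3. The share of read-through was therefore 10.6% and 5.03% in pm, 34.3% and 26.1% in T1, then 12.1% and 6.25% in T2, and lastly 0% and 2.94% in T3, and the T1 libraries lay above all others. Against T1, the ratio of read-through to terminated molecules fell by 4.42 ± 1.00 (log2, SE) in T3, with a limma adjusted p of 0.041. T1 held 70 and 40 of the 146 molecules on which the pair was chosen, so this p-value is not independent of the choice. The rise from pm to T1 was 2.40 ± 1.00 and did not pass the test (limma adjusted p = 0.20). Downstream-started molecules followed another course, with 877 and 580 in T1 and 1465 and 1238 in T2. The start bin rose from T1 to T2 by 1.96 ± 0.34 (limma adjusted p = 0.0021) while read-through molecules fell by 2.80 ± 0.90 (limma adjusted p = 0.037).

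Among loci whose pair with most read-through was of the rare class, the highest number was at chr7:63001-63100 on the minus strand, where molecules from 63734 to 62438 joined an upstream unit ending at 63099 and a downstream unit starting at 63087. Read-through molecules were seen in T2 alone, with 163 in replicate 1 and 5 in replicate 2, and in none of the other 6 libraries, so the pair entered through T2 alone. The end at 63099 was a minor one, with 248 and 1 terminated molecules in T2. The main end of the upstream unit was at 63147, in the neighbouring pair chr7:63101-63200 of the intermediate class, with 4390 and 327 terminated molecules in T2, 0 to 8 in each of the other 6 libraries, and 161 and 4 read-through molecules in T2. Downstream-started molecules were present in every library, from 19 in T3 replicate 2 to 361 in T1 replicate 1. The T2 count rests mainly on replicate 1.

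At chr9:66401-66500 on the plus strand a short upstream unit (66130 to 66436, 1335 molecules with a median of 300 nt) was joined to a downstream unit (66585 to 67637, 128 molecules) by 120 molecules. Read-through molecules were absent from pm, numbered 30 and 34 in T1, then 51 and 4 in T2, and lastly 1 and 0 in T3. The upstream unit was a T1 and T2 transcript as well, with 509 and 347 terminated molecules in T1, 66 and 392 in T2, and 3 to 9 in pm and T3. Downstream-started molecules were nearly confined to T2 (101 and 16), with 1 and 0 in T1. Relative to the scaled library sizes, read-through was at least 10.04-fold higher in T1 than in pm, set against a floor of 3 molecules over the 2 pm libraries. In T1 the downstream sequence was thus reached by 64 read-through molecules and by 1 molecule of its own start. In T2 replicate 1 the share of read-through was 43.6%, and in replicate 2 it was 1.01%, so the T2 replicates disagreed.

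The other 3 loci named for abundant rare read-through joined the units less cleanly. At chr12:475801-475900 on the minus strand, 79.2% of the 125 read-through molecules ended at the downstream end, but 6.40% began at the most used upstream start, and most began nearer, at 476222. Their share was 21.8% to 33.3% in the pm and T1 libraries and in T2 replicate 1, and 0.592% to 2.63% in T2 replicate 2 and the T3 libraries. The ratio was lower in T3 than in T1 by −4.51 ± 1.08 (log2, SE; limma adjusted p = 0.042), while terminated molecules numbered 154 and 53 in T1 and 275 and 168 in T3. This p-value, too, is not independent of the choice of the pair. At chr7:556501-556600 on the plus strand, all 122 molecules ended within a bin of the downstream end, and 0.820% began at the upstream start. The share there was 45.3% and 49.1% in T1 and 6.98% to 29.4% in the other 6 libraries. At chr11:90301-90400 on the plus strand, 95.5% of 89 molecules began at the upstream start and 31.5% ended at the downstream end, and read-through numbered 1 and 1 in pm and 35 and 35 in T1 (16.5-fold, with a 95% interval of 4.39 to 139 that covers counting error only). The main end of that upstream unit lay in the next bin, chr11:90401-90500, with 2842 terminated molecules.

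**Figure D2:**
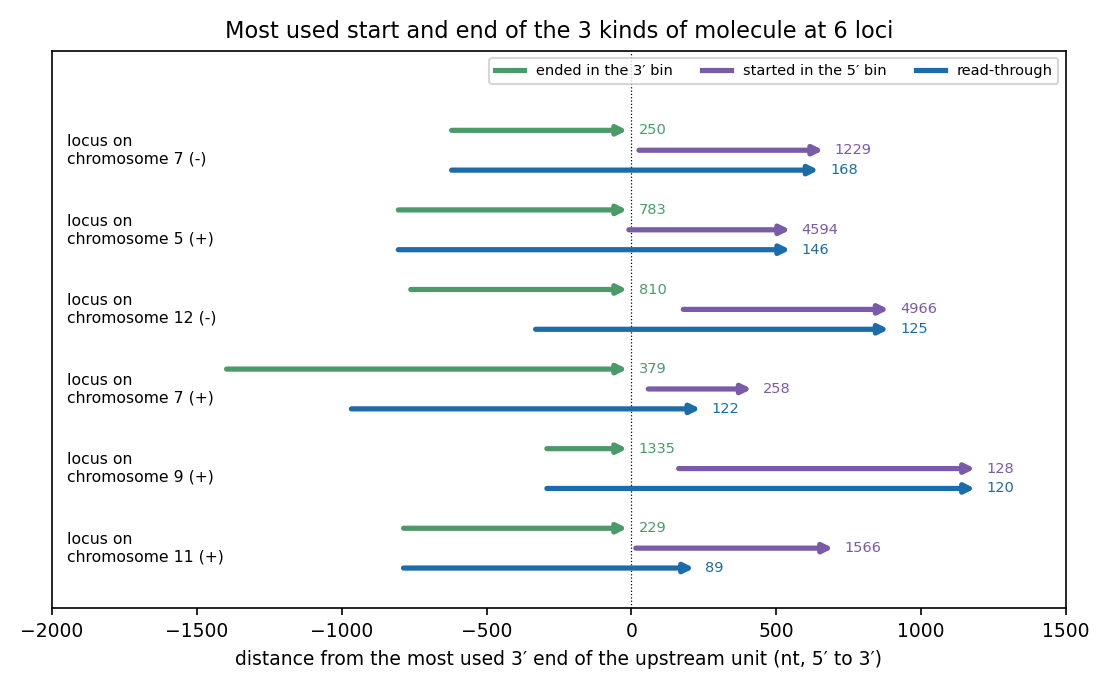
Most used start and end of terminated (green), downstream-started (violet), and read-through molecules (blue) at the 6 loci named for most read-through in the rare class, drawn to scale from the most used upstream 3′ end (x axis, nt); numbers are molecules summed over the 8 libraries. At the loci on chromosomes 5, 9, and 7 (minus strand) the blue arrow runs from the upstream start to the downstream end, and at the other 3 it starts or ends elsewhere.

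The 3 loci with most read-through in the dominant class were abundant transcripts with rare internal ends. At chr7:873101-873200 on the minus strand, 50269 molecules of a median of 1144 nt passed, against 172 terminated and 375 downstream-started molecules. They numbered 10508 and 21487 in pm, 901 and 335 in T1, then 203 and 86 in T2, and lastly 11133 and 5616 in T3. All pm and T3 libraries lay above all T1 and T2 libraries, with a level change of −5.82 ± 0.49 from pm to T1 (log2, SE; limma adjusted p = 1.5e-06) and of 6.13 ± 0.49 from T1 to T3 (limma adjusted p = 1.4e-06). The pair was chosen on these molecules, so these p-values are not independent of the choice. At chr4:713901-714000 on the minus strand, 46889 molecules of a median of 770 nt passed and 50 ended in the 3′ bin, with 29870 and 6857 of the passing molecules in T2. The third, chr15:872401-872500 on the minus strand, had 37439 of its 37931 molecules in T2 replicate 1, 458 in T2 replicate 2, and 1 to 12 in the other 6 libraries.

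**Figure D3:**
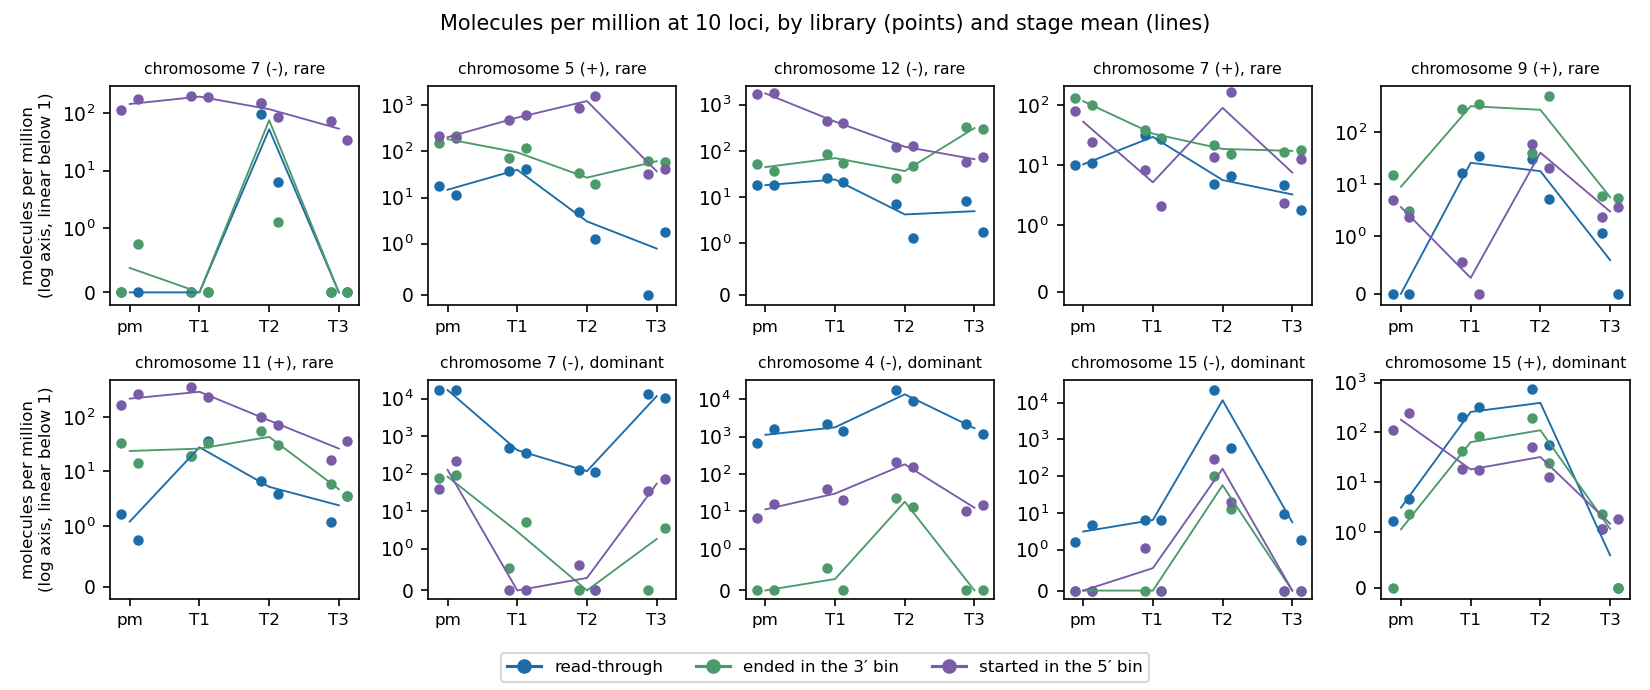
Molecules per 1000000 molecules of the library (y axis, log scale, linear below 1) of read-through (blue), terminated (green), and downstream-started molecules (violet) in each library (points) and on average per stage (lines), for 6 rare loci, 3 dominant loci, and chr15:352601-352700. Read-through on chromosome 7 (minus strand, first panel) and on chromosome 15 (minus strand) is highest in T2 with a wide gap between the replicates, and on chromosome 5 it is highest in T1.

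Summed over the 96 rare pairs, the share of read-through among molecules that reached the 3′ bin was 2.20% ± 0.75 in pm, 4.30% ± 0.011 in T1, 2.82% ± 1.81 in T2, and 1.40% ± 0.63 in T3 (SD, n = 2). The T1 libraries (4.31% and 4.29%) lay above the other 6, of which T2 replicate 1 came closest with 4.10%. The read-through molecules in this share are those the pairs were chosen on, so the shares are a description with no test. The T1 libraries supplied 1539 and 897 of the 4375 read-through molecules of the class, and without T1 replicate 1 only 121 of the 189 pairs would have been kept, so pairs that entered through T1 can raise the T1 share. For the 36 rare pairs that joined both units the share was 0.972% ± 0.476 in pm, 4.80% ± 0.285 in T1, 2.62% ± 1.58 in T2, and 2.43% ± 0.63 in T3. The median over the rare pairs with 20 or more molecules in a library gave 6.76% and 7.27% in T1 and 0.195% to 3.33% in the other libraries. Distinct read-through molecules of the rare class per 1000000 molecules of the library were 251 ± 39 in pm, 673 ± 9.5 in T1, 363 ± 104 in T2, and 122 ± 27 in T3. A related share over the 3′ bins outside the 189 pairs was 3.18% ± 0.23 in pm, 4.69% ± 0.38 in T1, 5.82% ± 1.82 in T2, and 3.97% ± 0.052 in T3. It is not the same measure, since only 1324 of the 6056 3′ bins had a 5′ bin 0 to 5 bins downstream. In the others, molecules that ended at least 3 bins beyond the 3′ bin itself were counted, whether or not they passed a start. The T1 libraries also had the highest shares of molecules over 1500 nt (1.81% and 1.90%, against 0.756% to 1.42% in the others), and the part of that in the T1 share was not tested.

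**Figure D4:**
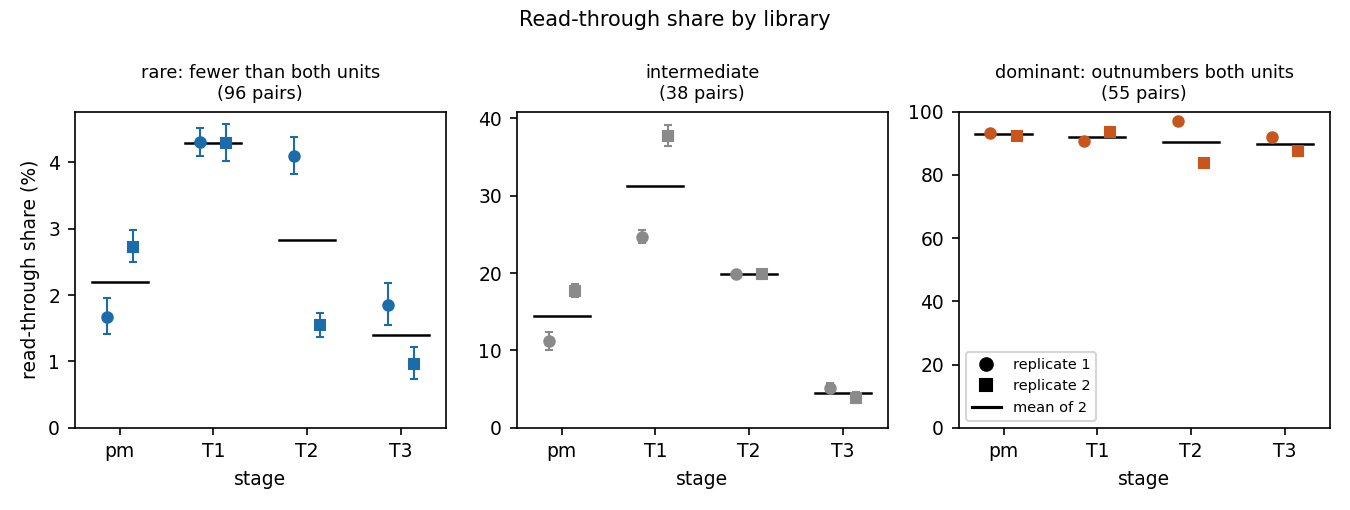
Share of read-through among molecules that reached the 3′ bin (y axis, %) in each library, summed over the pairs of a class; circles and squares are the 2 replicates with exact 95% intervals of counting error, and lines are stage means. The T1 libraries are highest in the rare class at 4.31% and 4.29%, the T2 replicates of that class lie apart at 4.10% and 1.55%, and the dominant class stays between 83.8% and 96.9%.

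The intermediate class had shares of 14.4% ± 4.6 in pm, 31.2% ± 9.2 in T1, 19.8% ± 0.023 in T2, and 4.48% ± 0.85 in T3, again highest in the T1 libraries and with the same limit. The dominant class had 92.7% ± 0.58, 92.0% ± 2.1, 90.4% ± 9.3, and 89.7% ± 3.1. Over all 189 pairs the share was 63.3% ± 3.5 in pm, 56.2% ± 1.9 in T1, 64.6% ± 18.9 in T2, and 60.9% ± 7.5 in T3.

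The ratio of read-through to terminated molecules within a library was tested pair by pair with limma, over the 521 3′ bins with a mean of at least 5 passing and 5 terminated molecules per library, of which 120 belonged to pairs. Bins with no 5′ bin 0 to 5 bins downstream counted molecules that passed the 3′ bin alone, so all bins are a mixed background. Calls required a 2-fold change or more and, after Benjamini-Hochberg adjustment, a p below 0.05. The read-through molecules in the ratio are those the pairs were chosen on, and a pair could enter through 1 stage alone. The counts and the p-values of single pairs therefore describe the pairs tested. From pm to T1, 2 pairs rose and none fell, against 0.768% of the 521 bins called in either direction, 0.576% higher and 0.192% lower. From T1 to T2 no pair and no other bin was called (0%). An unadjusted limma p under 0.05 was seen in 14 of the 120 pairs and in 47 of all 521 bins. From T1 to T3, 5 pairs rose and 13 fell, which was 15% of those tested, against 11.7% of all bins, 2.11% higher and 9.6% lower. The pairs moved much as all bins did. Their median change was 1.01 (log2) from pm to T1 against 0.88 over all bins, −0.65 against −0.80 from T1 to T2, and −1.36 against −1.17 from T1 to T3. With stages at 0 molecules set to a floor of 3 over the stage, the medians of the pairs were 1.12, −0.65, and −1.18. A ratio was higher in T1 than in pm in 90 of the 120 pairs and higher in T3 than in T1 in 34 of 120. Both directions are those of the medians of all bins, 0.88 and −1.17. The standard error of a pair had a median of 1.00 on the log2 scale, which limits the changes that could be called. Leaving out a single library decided these calls. From pm to T1, no pair was called without either pm, T1, or T3 library or without T2 replicate 2, and 4 pairs were called without T2 replicate 1. From T1 to T3, no pair was called without either library of pm, T1, or T3, while 24 and 25 were called without T2 replicate 1 and 2. Of the 18 pairs called from T1 to T3, 3 had a stage with 0 molecules of one kind.

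The 2 pairs whose ratio rose from pm to T1 differed in kind. At chr7:1051901-1052000 on the minus strand, read-through molecules were 300 and 259 in pm and 773 and 370 in T1, while terminated molecules were 35 and 146 in pm and 3 and 0 in T1. The ratio rose by 6.71 ± 0.98 (log2, SE; limma adjusted p = 0.022). In T3 terminated molecules returned, with 374 and 274 beside 3135 and 1958 read-through molecules, and the ratio fell by 5.71 ± 0.98 from T1 (limma adjusted p = 0.031). This change is one of the bin: in the neighbouring pair chr7:1051801-1051900 of the same locus, terminated molecules in T1 were 62 and 50 beside 775 and 372 read-through molecules, and the ratio was not called in any contrast. The share of read-through at chr7:1051901-1052000 was 89.6% and 64.0% in pm, 99.6% and 100% in T1, and 89.3% and 87.7% in T3. The other pair, chr4:713601-713700 on the minus strand, was of the intermediate class with a single downstream-started molecule, and had 3 and 11 read-through and 82 and 479 terminated molecules in pm, and 177 and 69 read-through and 190 and 54 terminated molecules in T1. The share of read-through went from 3.53% and 2.24% to 48.2% and 56.1%, and its ratio rose by 5.09 ± 0.78 (limma adjusted p = 0.022). The main end of that unit, at 713525 in the next pair (chr4:713501-713600), had 1006 and 3055 terminated molecules in pm and 1973 and 676 in T1, and no ratio called. The pair was named because only 2 pairs rose, after its values were seen.

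The rises from T1 to T3 were at chr7:873101-873200 and chr2:664401-664500 on the minus strand and at 3 neighbouring pairs between 794301 and 794600 on the minus strand of chromosome 12, which share molecules. At chr2:664401-664500 terminated molecules went from 89 and 53 in T1 to 0 and 2 in T3 beside 257 and 355 read-through molecules in T3, and the ratio rose by 3.85 ± 0.93 (log2, SE; limma adjusted p = 0.042). The largest fall among representatives was at chr10:441401-441500 on the plus strand, where terminated molecules rose from 1 and 1 in T1 to 70 and 40 in T3 beside 445 and 217 read-through molecules. The ratio fell by 5.90 ± 1.07 (limma adjusted p = 0.032), and the share of read-through went from 99.8% in both T1 libraries to 86.4% and 84.4%. Of the 18 pairs called from T1 to T3, 12 belonged to the dominant class, where the terminated form is the minor one, 5 to the rare class, and 1 to the intermediate class. The rare pairs all fell, and 3 of them joined both units: chr5:228201-228300, chr14:100001-100100, and chr12:462301-462400.

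The level of the read-through molecules was tested with limma voom over the 532 3′ bins with a mean of at least 5 passing molecules per library, which include 125 pairs. As for the ratio, bins with no 5′ bin in reach counted molecules that passed the 3′ bin alone. From pm to T1, 33 pairs rose and 7 fell (32% of 125), against 30.1% of all bins, 24.8% higher and 5.26% lower. From T1 to T2, 25 rose and 3 fell (22.4%), against 21.6% (17.9% higher, 3.76% lower), and from T1 to T3, 15 rose and 35 fell (40%), against 45.9% (13.9% higher, 32% lower). The share of pairs called was thus near that of all bins in each contrast. A pair that entered through its sum over the libraries could do so by a high level in 1 stage alone. These counts and the level p-values of single pairs therefore describe the pairs tested. The median change of the pairs was 0.54 (log2) from pm to T1, −0.07 from T1 to T2, and −1.004 from T1 to T3, against 0.72, −0.22, and −1.16 over all bins. With stages at 0 set to the floor, the medians of the pairs were 0.58, −0.08, and −0.77. When libraries were scaled by their totals instead, which moved the median of all bins from −0.22 to −1.08 for T2 against T1 and from −1.16 to −2.52 for T3 against T1, 22 pairs rose and 36 fell from T1 to T2, and 12 rose and 73 fell from T1 to T3. With upper-quartile scaling, 24 rose and 16 fell from T1 to T2. From pm to T1 the median of all bins was 1.22 when scaled by totals. Without T1 replicate 2 or pm replicate 2 the calls from pm to T1 numbered 16 and 18, without T2 replicate 1 those from T1 to T2 numbered 15, and without T3 replicate 1 or 2 those from T1 to T3 numbered 32 and 31.

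Of the 125 pairs tested, both libraries of a stage lay above the other 6 in 20 pairs for T1 (16%), 28 for T2 (22.4%), 15 for T3 (12%), and 2 for pm (1.6%). Over all 532 bins these shares were 19.2%, 21.6%, 14.3%, and 4.51%. Scaled by the library totals instead, the numbers of pairs were 43 for T1, 26 for T2, 3 for T3, and 3 for pm, so the order of the stages depends on the scaling. The pm pairs, named after their values were seen, were chr13:179701-179800 and chr16:621001-621100 on the plus strand. In 42 of the 125 pairs a single library held over 50% of the read-through molecules after scaling by the library totals, and in 20 of the 42 that library was T2 replicate 1. Among pairs with 40 or more read-through molecules in the 2 libraries of a stage, the T2 replicates differed more than 4-fold in 14 of 70 pairs, with replicate 1 higher in 12. The pm replicates did so in 12 of 51, T3 in 1 of 35, and T1 in 0 of 85. Over all 3′ bins the replicates differed by more than 4-fold in 16.8% (T2), 20.1% (pm), 3.31% (T3), and 0.865% (T1).

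From pm to T1 the 7 falls were 5 neighbouring pairs between 794101 and 794600 on the minus strand of chromosome 12, chr7:873101-873200, and chr12:443901-444000 on the minus strand, where T1 held 7 and 0 read-through molecules against 5 and 151 in pm, so that the fall there rests on pm replicate 2. From T1 to T2 the 3 falls were at chr5:228201-228300, at chr12:970201-970300 (plus strand; 289 and 67 in T1, 6 and 11 in T2), and at chr14:442901-443000 (plus strand; 36 and 19 in T1, 2 and 0 in T2, a 0.0792-fold level with a 95% counting interval of 0.00936 to 0.300). At chr12:970201-970300 no molecule passed in pm or T3, and the T1 level was at least 55.9-fold above pm and at least 23.9-fold above T3 against the floor.

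The downstream start was tested on all molecules that started in the 5′ bin, over the 5946 5′ bins, of which 163 belonged to pairs. These include molecules that ran less than 3 bins and are not counted as downstream-started. At chr4:713501-713600, for example, the 5′ bin held 185 starts and 0 downstream-started molecules. From pm to T1, 20 of these starts rose and 18 fell (23.3%), against 25.6% of all 5′ bins, 13.2% higher and 12.4% lower. From T1 to T2, 31 rose and 1 fell (19.6%), against 20% (16.1% higher, 3.88% lower), and from T1 to T3, 33 rose and 30 fell (38.7%), against 41.1% (18.9% higher, 22.1% lower). The fall from T1 to T2 was at chr4:235401-235500 on the minus strand, with 164 and 99 downstream-started molecules in T1 and 4 and 3 in T2. Scaled by library totals, 30 starts rose and 16 fell from pm to T1, 25 rose and 15 fell from T1 to T2, and 17 rose and 63 fell from T1 to T3, with the median of all 5′ bins moved from 0.12 to −0.74 for T2 against T1 and from −0.40 to −1.73 for T3 against T1. Left-out libraries moved these counts as well: from pm to T1 to 20 and 19 without T1 replicate 1 and 2 and to 13 without pm replicate 2, from T1 to T2 to 21 without T1 replicate 1, and from T1 to T3 to 29 and 34 without T3 replicate 1 and 2.

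Since transcription across a promoter can repress it, the level of read-through and the use of the downstream start were set side by side. Of the 33 pairs (24 loci) whose read-through rose from pm to T1, the downstream start rose in 11, fell in 5, and was not called in 17, with a median start change of 1.13 (log2). Over all 5′ bins, 13.2% rose and 12.4% fell in that contrast. Of the 85 tested pairs whose level was not called, the start rose in 7 and fell in 9. Of the 25 pairs (19 loci) whose read-through rose from T1 to T2, the start rose in 17 and fell in none. Over all 5′ bins, 16.1% rose and 3.88% fell in that contrast. Of the 15 pairs that rose from T1 to T3, which lie at only 9 loci, the start rose in 13 and fell in none. Over all 5′ bins, 18.9% rose and 22.1% fell from T1 to T3. Of the 35 pairs (25 loci) whose read-through fell from T1 to T3, the start fell in 17 and rose in 4. These counts were not tested against each other. Among the 33, 25, and 15 raised pairs, 15, 12, and 10 were of the dominant class, where the 5′ bin is a minor start. Only 12, 4, and 2 were of the rare class. The choice required molecules of both kinds summed over the libraries, so 1 stage high in both can favour joint rises. Neighbouring pairs can share a 5′ bin and are not independent.

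The 5 pairs with opposite changes from pm to T1, all but 1 named after their values were seen, were the following. At chr15:352601-352700 on the plus strand, the largest fall of a start beside a raised level, molecules from 352121 to 353095 passed an end at 352650 and a start at 352606. Read-through molecules numbered 1 and 6 in pm, 364 and 305 in T1, then 1215 and 44 in T2, and lastly 1 and 0 in T3. Downstream-started molecules numbered 67 and 327 in pm, 34 and 17 in T1, then 86 and 10 in T2, and lastly 1 and 1 in T3. The read-through level rose by 5.62 ± 1.15 (log2, SE; limma adjusted p = 0.0021) and the start fell by 3.73 ± 0.82 (limma adjusted p = 0.0081). The p-value of the level is not independent of the choice of the pair, which used the same molecules. This pair is of the dominant class, and 79.1% of the molecules that reached the 3′ bin went on.

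At chr5:266301-266400 on the minus strand, 3 and 0 read-through molecules in pm became 50 and 36 in T1, while the downstream unit fell from 2805 and 7130 molecules in pm to 1538 and 764 in T1. The start change was −3.06 ± 0.31 (log2, SE; limma adjusted p = 0.00021). Read-through rose 13.5-fold, with a 95% counting interval of 4.47 to 66.7, and its 86 molecules in T1 were few beside those of the downstream start. At chr4:1393201-1393300 on the minus strand, read-through numbered 0 and 1 in pm and 29 and 20 in T1 (23.1-fold, interval 3.95 to 930), and the start fell by 2.16 ± 0.50 (limma adjusted p = 0.011). At chr4:1434201-1434300 and chr4:1434301-1434400 on the plus strand, which share a downstream unit and nearly all read-through molecules, 0 to 2 molecules per library in pm became 31 or 32 and 20 in T1, and the shared start fell by 2.51 ± 0.54 (limma adjusted p = 0.0072), from 69 and 132 downstream-started molecules to 46 and 24. The upstream unit at chr4:1434201-1434300 rose in the same step from 168 and 291 to 1224 and 1003 terminated molecules.

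By the limma calls, the order was turned at 2 of these 5 pairs on the return to rich medium. From T1 to T3, read-through fell and the downstream start rose at chr4:1393201-1393300 (start change 3.20 ± 0.51, log2, SE; limma adjusted p = 0.00066) and at chr5:266301-266400 (1.18 ± 0.38; limma adjusted p = 0.029). At chr5:266301-266400 the downstream-started molecules numbered 1538 and 764 in T1 and 571 and 469 in T3. The counts were thus lower in T3, and the called rise there rests on the scaling of the libraries by the median of ratios. The other 2 pairs with this pattern were chr9:66401-66500, where it rests on 1 and 0 downstream-started molecules in T1 and 2 and 2 in T3, and chr14:651301-651400 on the plus strand. At the latter, which joined both units, read-through went from 57 and 63 in T1 to 1 and 0 in T3 (0.0414-fold, 95% counting interval 0.00104 to 0.235) and the start rose by 2.40 ± 0.48 (limma adjusted p = 0.0025). These contrasts share the T1 libraries, so the turn is not independent of the first change.

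**Figure D5:**
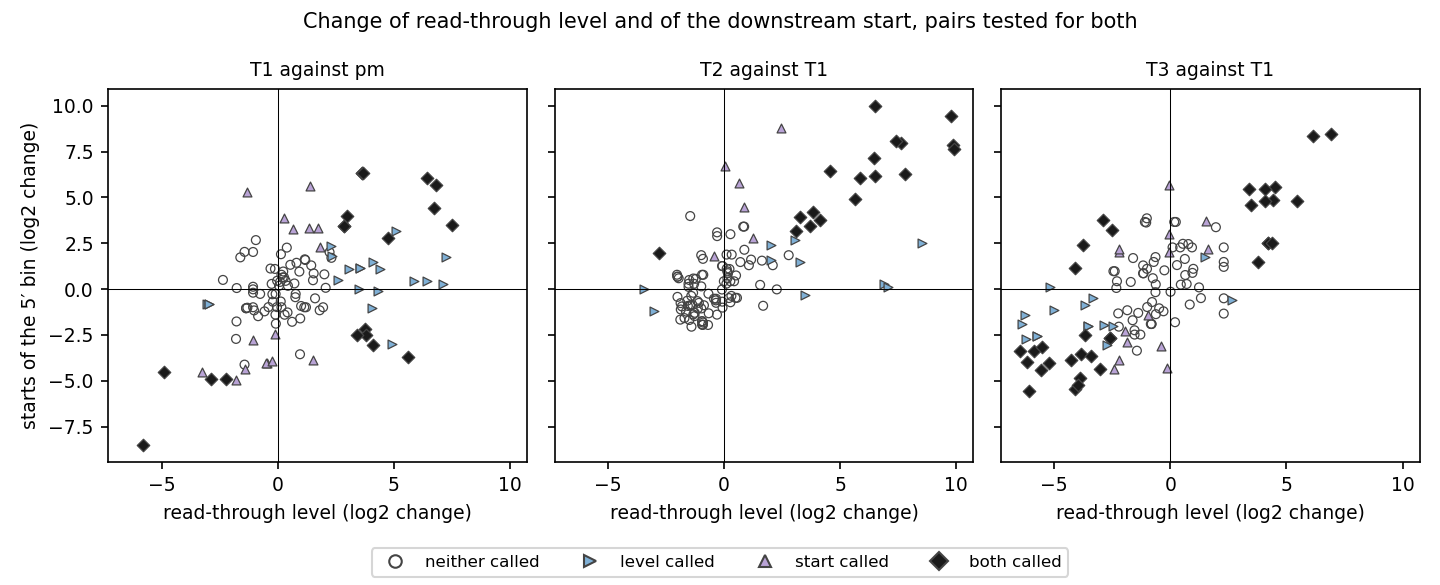
Change of the read-through level (x axis, log2) and of the molecules of the 5′ bin (y axis, log2) for the pairs tested for both, in 3 stage contrasts; symbols show which of the changes was called by limma. In the T2 contrast no pair has a raised level with a called fall of the start, and in the T1 contrast 5 pairs lie in the lower right.

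The largest start change downward beside a raised level was not a called fall in the other contrasts. From T1 to T2 it was at chr15:140901-141000 on the minus strand (start −0.33 ± 0.59, log2, SE; limma adjusted p = 0.73), with 4 and 4 read-through molecules in T1 and 53 and 10 in T2. From T1 to T3 it was at chr7:605001-605100 on the plus strand (start −0.62 ± 1.40; limma adjusted p = 0.75). The read-through level at that pair was called higher in T3 on 2 molecules in T3 against 2 in T1, a 4.97-fold difference after scaling with a 95% counting interval of 0.36 to 68.6. In T2 the same pair had 144 and 104 read-through molecules.

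Other rare pairs that joined both units showed several courses, and the 5 given here were chosen after their values were seen. The rare pair with most read-through, chr13:103601-103700 on the plus strand, had 271 read-through, 1593 terminated, and 5813 downstream-started molecules, and 96.7% of the read-through molecules began at the upstream start and 100% ended at the downstream end. They were present in all 8 libraries, from 12 in T2 replicate 2 to 135 in T1 replicate 1. The pair did not represent its locus, where a pair outside the rare class had at least as many read-through molecules. The share was 4.51% and 8.17% in pm and 13.4% to 22.4% in the other 6 libraries, but the ratio was not called in any contrast (limma adjusted p = 0.22 for T1 against pm).

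At chr2:724901-725000 on the plus strand, 53 and 3 molecules passed in T2 and none in the other 6 libraries. The upstream unit was present in all libraries and highest in T2, with 2925 and 1925 terminated molecules against 89 to 423 in the others, and the downstream unit was seen in T2 alone, with 110 and 1 molecules. Read-through was 0.893% of the molecules that reached the 3′ bin. At chr10:354401-354500 on the minus strand, 34 and 13 molecules passed in T2 and none elsewhere, and both units were T2 transcripts, with 147 and 20 terminated and 3830 and 929 downstream-started molecules. Both pairs entered through T2 alone.

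At chr14:100001-100100 on the plus strand, the upstream end was used mainly in T3, with 55 and 46 of its 106 terminated molecules. Read-through numbered 26 and 8 in T3 and 2 to 9 in the other libraries, so its level rose from T1 to T3 by 3.76 ± 0.81 (log2, SE; limma adjusted p = 0.0017) while the ratio fell by 4.41 ± 0.92 (limma adjusted p = 0.041). Both p-values use the read-through molecules on which the pair was chosen. At chr12:462301-462400 on the minus strand, read-through numbered 12 and 13 in T1 beside 9 and 3 terminated molecules, and 0 and 0 in T3 beside 12 and 12. The share was 57.1% and 81.2% in T1 and 14.3% to 25.0% in the pm and T2 libraries, and the ratio fell from T1 to T3 (limma adjusted p = 0.026). The pair was chosen on these read-through molecules, so this p-value is not independent of the choice. The end of this pair was a minor one, with 108 terminated molecules. At chr12:462101-462200, which nearly the same read-through molecules passed, 816 molecules terminated, the share was 6.77% and 8.44% in T1, and the ratio changed by −0.04 from T1 to T3 and was not called.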

How the data were processed

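TIF-seq libraries of 4 pools of SK1 yeast, 2 replicates each, were analysed. Each deposited file lists, per molecule, the positions of both reads and a mapping quality score, which the authors' aligner left at 1 value throughout. According to the study's methods, reads were mapped to an SK1 assembly, uniquely mapped pairs were kept, and bedtools wrote their positions. The deposited files also hold molecules on 3 spike-in sequences. The submitters' processing notes name cutadapt 1.16 and STAR 2.5.3a without roles, and no source used here gives the aligner for TIF-seq. Pool times come from the study's supplement.

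Molecules were counted per 100-nt bin from these positions, and those with the same start and end were each counted. The pairs, lists, and tests were chosen with earlier results of these data known. The ratio was log2((read-through + 0.5)/(terminated + 0.5)), fitted with limma 3.58.1 in R 4.3.3 with a variance trend on the counts behind each ratio. Levels and starts were fitted with limma voom, with libraries scaled by the median of ratios. All 8 libraries entered each fit with stage as the only term, p-values were adjusted over all bins tested, and the 3 contrasts share the T1 libraries. The labels do not say whether replicates came from separate cultures, so p-values measure the spread between these samples, which may be technical. Loci were represented by their pair with most read-through, and those named were the 6 with most read-through in the rare class, the 3 in the dominant class, and, per contrast, up to 2 called rises and 2 called falls of the ratio that moved the same way in all 4 pairs of libraries, and the largest fall of a start beside a raised level. Shares have exact Clopper-Pearson 95% intervals, which cover counting error only, as do counting intervals of ratios. The floor was 3 molecules over a stage. Alternatives comprised other scalings, filters, pseudocounts, length limits, and definitions of an end, a replicate block, and leaving out each library. The steps were tested on simulated data.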

Additional observations from a re-analysis of the deposited data

Results flagged for a closer look

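The 3 spike-in transcripts, which entered no comparison, gave 14464 molecules over the 8 libraries, from 898 in T3 replicate 2 to 4396 in T1 replicate 1. They made up 0.0874% of the molecules of T2 replicate 1, the lowest share, and 0.241% of those of T1 replicate 1, the highest.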

How the results depend on the processing

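Of 193 values recomputed under alternatives, 136 stayed within 1.5 times the count or within the replicate spread of the share, and 57 moved. The counts below are pairs called with limma, and the cause of a move was not tested. For the ratio, T1 against pm (2) gave 4 with each position pair counted once, 1 with the end widened by 1 bin, 9 with no filter, 0 in a fit of only the 2 stages, 15 with a pseudocount of 2, and 0 to 4 with a library left out. T2 against T1 (0) gave 1 with a pseudocount of 2 and 0 with any library left out. T3 against T1 (18) gave 9 at a mean of 20 molecules, 51 with no filter, 0 in a fit of only the 2 stages, 36 with a pseudocount of 2, and 0 to 25 with a library left out. For the level, T1 against pm (40) gave 61 with no filter and 16 to 48 with a library left out. T2 against T1 (28) gave 18 at a mean of 20, 58 scaled by totals, and 15 to 33. T3 against T1 (50) gave 90 with no filter, 85 scaled by totals, and 31 to 65. For starts, T1 against pm (38) gave 23 at a mean of 20 and 13 to 50 with a library left out, T2 against T1 (32) gave 21 to 36, and T3 against T1 (63) gave 29 to 82. The share over all pairs was 63.3% in pm, and 57.9% with each position pair once, 46.1% with the end widened, 15.2% as the median of pairs, 71.7% over pairs that join both units, and 60.8% to 65.8% in single libraries. In T1 (56.2%) it was 53.7% for molecules up to 1500 nt, 35.7% widened, 25.9% as the median, 71.5% over joined pairs, and 54.8% to 57.6%. In T2 (64.6%) it was 43.1% widened, 25.4% as the median, and 51.3% to 78.0%. In T3 (60.9%) it was 36.1% widened, 25.2% as the median, 78.5% over joined pairs, and 55.5% to 66.2%. The number of pairs (189) was 132 with each position pair counted once, which is within 1.5 times. It was 88 with a clearance of 5 bins, 82 with 200 or more ends and starts, and 121 to 171 with a library left out, the lowest without T1 replicate 1. A left-out library leaves its stage with 1 sample, which is then assumed to vary like the others.

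With the replicate number as a block, the ratio gave 2, 0, and 19 calls, the level 41, 28, and 47, and the starts 35, 37, and 65, in the order of the 3 contrasts. Same-numbered replicates did not deviate together in every pair of stages (r from −0.36 to 0.14). The numbers were therefore not taken to pair the samples, though with 2 replicates per stage this check cannot exclude a pairing. Depth limits pairs with few molecules, and molecules over 1500 nt are scarce in every library.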
